A study of Homo sapiens with 18 samples.

Results

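The 10 genes described here belong to transforming growth factor beta (TGF-beta) and bone morphogenetic protein (BMP) signalling, and were followed through drug exposure and drug resistance in Ewing sarcoma cell lines. They were the ligands TGFB1, TGFB2 and BMP4, the receptor TGFBR2, the inhibitory SMAD gene SMAD7, the secreted target TGFBI and the transcriptional inhibitors ID1, ID2, ID3 and ID4. Every probe set annotated to exactly 1 of these genes was taken, which gave 18 probe sets for the 10 genes, out of 20374 single-gene probe sets for 12754 gene symbols on the array.

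In this pathway a ligand dimer brings type II receptors such as TGFBR2 and BMPR2 together with type I receptors, and the activated complex phosphorylates receptor SMAD proteins, which enter the nucleus with SMAD4. SMAD7 is induced by the pathway and feeds back on the receptors. The ID genes are classical targets of BMP signalling, and their proteins lack a DNA-binding region and hold E proteins (the products of TCF3, TCF4 and TCF12) away from E-box sequences. In Ewing sarcoma, the fusion protein EWS-FLI1 has been described as a repressor of TGFBR2 and an activator of ID2.

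The study measured RNA from the human Ewing sarcoma lines TC32 and TC71 on 18 arrays, in 6 groups of 3. Parental cells of each line were the untreated reference. A second group of each line, plated 24 h earlier, received 3 µM YK-4-279, a small molecule developed to block the partner binding of EWS-FLI1, for 72 h. The third group of each line was made of 3 resistant clones grown through rising doses that ended at 3 µM after 7 months, with 1 array per clone: C1, C4 and CP from TC32 and C3, C4A and C5 from TC71. All arms carry the lines' own fusion; no transgene was used, parental cells kept in culture for the same months were not analysed here, and it is not stated if the clones were harvested in compound or without it. Nor is it stated if replicate arrays of the parental and 72 h groups came from separate cultures, so p-values measure only spread between arrays. That spread was pooled over all 6 groups for each probe set. Spread among clones thus entered the tests of 72 h against parental cells, and spread among replicates entered the clone tests.

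Values are on a log2 scale centred per probe set: 0 is the probe set's own median over the 18 arrays and carries no information on how strongly the gene was expressed. For that reason the Ewing identity of the cells could not be read from marker levels. In bulk RNA, fewer cells expressing a gene and less RNA per cell cannot be told apart. Differences between groups were tested with limma over all 20374 probe sets, and a difference was called when its p-value adjusted by the Benjamini-Hochberg method was under 0.05.

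Several arrays stood apart from their groups. By the root mean square (RMS) distance over the 3159 probe sets with a standard deviation above 0.5, the array nearest to TC32 parental replicate 1 was replicate 1 of the TC71 parental group (0.70, against a mean of 1.09 to its own group), and the one nearest to TC71 parental replicate 2 was a TC71 array after 72 h (0.67). TC71 72 h replicate 2 lay 0.91 from its closest array. Clones lay 1.12 to 1.42 from their closest array, which for 4 of 6 was outside their own group and for C5 was a TC32 parental array, and TC71 72 h replicates 1 and 3 only 0.28 from each other. Among the marker lists for other cell types, all 5 endothelial probe sets and 7 of 9 blood probe sets had a standard deviation under 0.1 over the arrays, and the summed blood list ran from -0.08 to 13.48 in TC32 clones and from -0.13 to 15.31 in TC71 clones against -0.05 to 0.05 in parental arrays. That spread came from PTPRC, the leukocyte phosphatase CD45. Its probe set 212588_at read 5.82 in C1, 7.18 in CP and 8.43 in C3 and between -0.05 and 0.42 in the other clones. Probe set 207238_s_at read 4.11 in C1, 6.06 in CP and 6.97 in C3 and -0.01 in the others. The remaining PTPRC probe set, 212587_s_at, was flat (standard deviation 0.03). The summed fibroblast list spanned -6.68 to 0.53 in TC32 clones, -6.72 to 1.45 in TC32 parental arrays, -6.44 to 2.62 in TC71 clones and -2.17 to 0.68 in TC71 parental arrays. The epithelial list summed to -3.35 to -0.32 in TC32 clones against -0.18 to 2.45 in TC32 parental arrays, and KRT18, a keratin, was its 1 probe set of 7 that fell there by limma. Other members went the other way in single clones: EPCAM read 2.88 in CP and 3.41 in C3, and KRT8 (209008_x_at) 1.30 in C1. In TC71 the summed ranges were -1.57 to 1.95 in clones and 0.39 to 3.44 in parental arrays. Among 12 probe sets of Ewing marker genes, 2 rose and 1 fell in TC32 clones against parental cells, where 5.51% of the array passed. In TC71 clones 2 rose and 0 fell, where 0.825% of the array passed, and both were probe sets of the same gene, CCND1. The part of these markers in the results was not tested.

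The ID promoters and the TGFBR2 promoter are shown because SMAD proteins act on ID genes and the ETS family, to which FLI1 belongs, is the class of factor named for TGFBR2. RefSeq promoter windows on GRCh38.p14 were found for 10 of 10 genes, and the 250 bases before the start are printed 5′ to 3′ on the gene's strand. In the ID windows the capitals mark GTCT, or AGAC for the other strand, the short core of SMAD binding elements.
ID1, chr20:31605039-31605288, plus strand: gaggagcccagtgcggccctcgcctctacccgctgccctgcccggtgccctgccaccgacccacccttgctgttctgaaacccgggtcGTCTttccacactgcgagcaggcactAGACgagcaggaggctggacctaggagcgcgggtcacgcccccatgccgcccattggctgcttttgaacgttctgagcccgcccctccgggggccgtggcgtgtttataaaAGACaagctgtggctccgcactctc
ID2, chr2:8681806-8682055, plus strand: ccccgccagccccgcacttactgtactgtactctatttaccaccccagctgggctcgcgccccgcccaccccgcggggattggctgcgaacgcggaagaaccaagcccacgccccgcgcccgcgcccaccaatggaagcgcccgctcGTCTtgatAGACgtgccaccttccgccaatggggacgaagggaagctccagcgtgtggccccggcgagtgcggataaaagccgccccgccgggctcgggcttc
ID3, chr1:23559502-23559751, minus strand: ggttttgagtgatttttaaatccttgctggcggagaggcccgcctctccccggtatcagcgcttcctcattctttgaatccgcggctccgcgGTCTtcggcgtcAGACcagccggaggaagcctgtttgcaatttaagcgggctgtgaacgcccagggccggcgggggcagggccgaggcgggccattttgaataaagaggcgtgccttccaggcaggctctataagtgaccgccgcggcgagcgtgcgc
ID4, chr6:19837120-19837369, plus strand: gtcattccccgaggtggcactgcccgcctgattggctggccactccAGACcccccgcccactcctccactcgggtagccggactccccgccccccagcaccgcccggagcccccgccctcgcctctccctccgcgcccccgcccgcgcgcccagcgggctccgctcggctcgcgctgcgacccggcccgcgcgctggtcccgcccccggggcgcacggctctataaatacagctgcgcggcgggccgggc
In the TGFBR2 window, that of the second of 2 annotated starts, the capitals mark GGAA, or TTCC for the other strand, the core of ETS sites.
TGFBR2, chr3:30606351-30606600, plus strand: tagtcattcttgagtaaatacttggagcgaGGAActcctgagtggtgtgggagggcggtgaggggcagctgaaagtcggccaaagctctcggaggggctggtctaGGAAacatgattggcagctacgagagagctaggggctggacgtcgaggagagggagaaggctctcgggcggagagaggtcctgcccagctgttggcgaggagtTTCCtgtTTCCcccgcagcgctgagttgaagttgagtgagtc
The SMAD core occurred 3 times in the ID1 window, 2 times in those of ID2 and ID3 and 1 time in that of ID4, while 77.5% of 35116 promoter windows of the same length hold at least 1, with a median of 1. The printed TGFBR2 window held 4 ETS cores and that of the other start 2, against a median of 3 and at least 1 in 92.7% of windows. The E-box CANNTG was present 1 time each in the ID2 and ID4 windows and absent from those of ID1 and ID3, and 61.8% of all windows hold it. Such short matches are frequent by composition, and a match or its absence says nothing about binding.

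Of the 18 probe sets, 11 varied over the arrays and 7 were flat, with a standard deviation under 0.1. The flat ones were all 4 for TGFB2, the isoform of the ligand TGF-beta 2, the only ones for BMP4 and TGFBI, and the TGFBR2 probe set 207334_s_at. None of their values lay further than 0.11 from the probe set's median. The TGFB2 probe set 220406_at is annotated to the minus strand, and the other TGFB2 probe sets to the plus strand. The annotation places TGFB2 at chr1:218519493-218615478, BMP4 at chr14:54416659-54418924 and TGFBI at chr5:135364697-135399507 in a build that the sources used here do not name. BMP4 is a BMP ligand and TGFBI an extracellular matrix protein named for its induction by TGF-beta. Since the values are relative, flat values do not say whether these genes were off, saturated or steadily expressed.

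**Figure D1:**
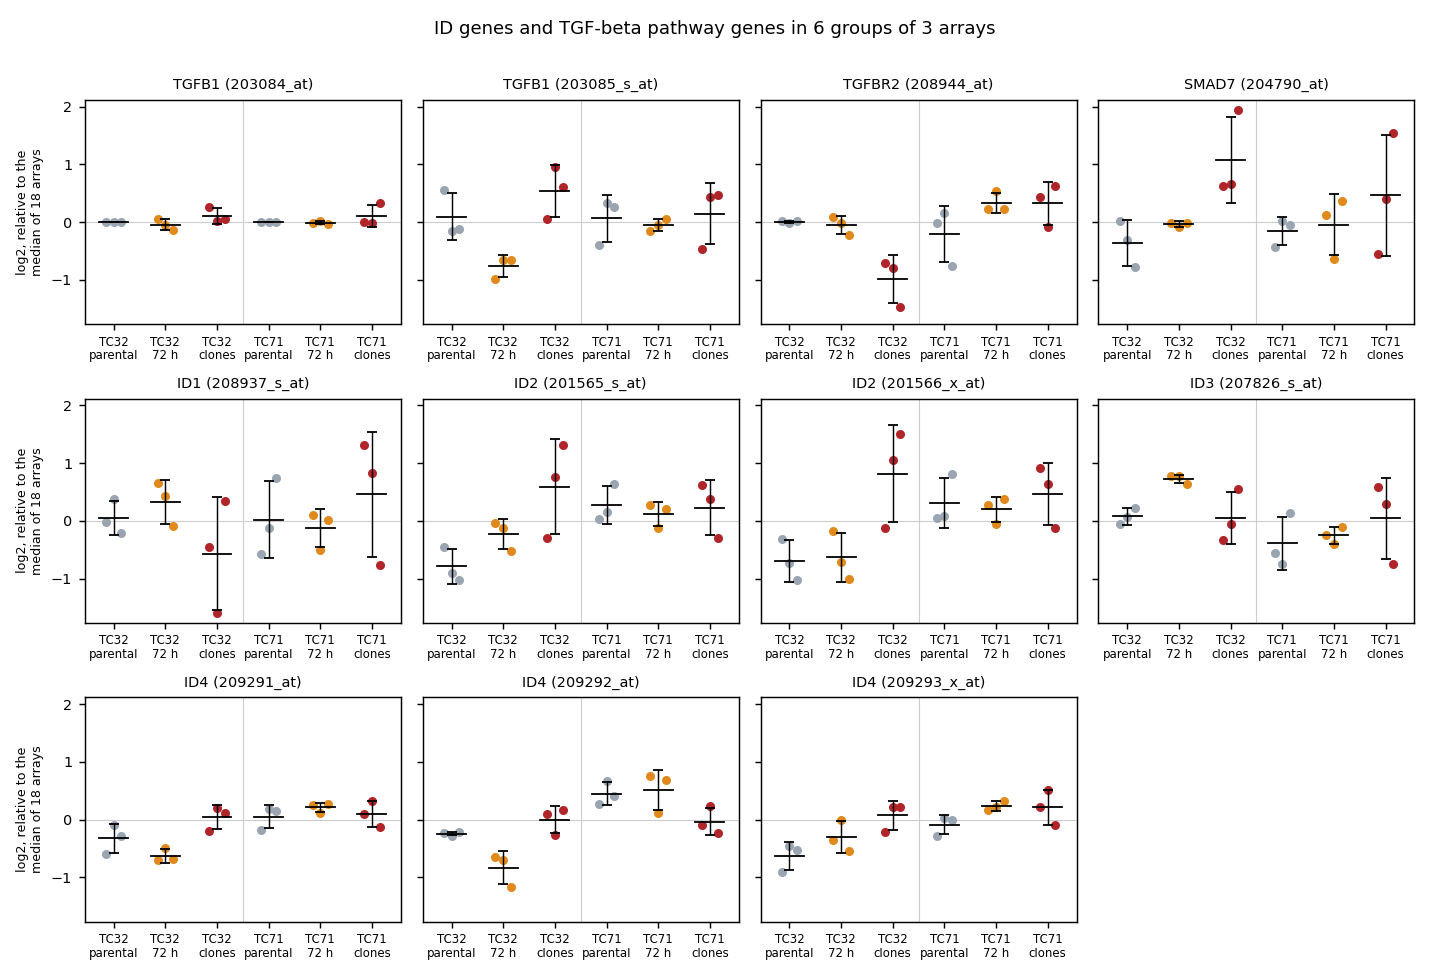
Relative log2 value of each of the 11 varying probe sets (vertical axis) on each array, by group along the horizontal axis; each point is 1 array (grey parental, orange 72 h, red clones), each long bar the mean of 3 and each whisker 1 SD. The array order within a group carries no meaning. The spread is widest among the resistant clones for ID1, ID2 and SMAD7, and TGFBR2 lies below all other TC32 arrays in the 3 TC32 clones.

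Adjusted calls among the 18 probe sets came from the TC32 clones, and none came from the 72 h groups or from TC71. After 72 h in TC32, 0 of 18 probe sets passed limma's adjusted threshold, against 2.05% of all probe sets; 2 passed an unadjusted p under 0.05, against 14.2%, and the 3 treated arrays did not overlap the parental ones for 3 of 18, against 19.3%. In TC71 after 72 h, 0 passed by limma against 0.0933% of the array, and 0 passed unadjusted against 10.3%. In TC32 clones against parental cells, 4 of 18 passed against 5.51% of the array: 3 rose (background 2.76% higher) and 1 fell (background 2.75% lower), and 6 of 18 did not overlap against 19.6%. In TC71 clones against parental cells, 0 passed against 0.825%, 1 passed unadjusted against 10.7%, and 7 did not overlap against 42.6%. Only 1 of these 7 varied over the arrays, ID4 209292_at (difference -0.48), and the flat ones differed by -0.04 to -0.01. The share of the array includes flat probe sets too. The median difference of the 18 lay between -0.01 and 0.03 in the comparisons within lines, and that of all probe sets between -0.02 and 0.01. That median includes the 7 flat probe sets. Over the 11 varying ones it was 0.37 in TC32 clones against parental cells, with 8 higher and 3 lower. It was 0.67 in TC32 clones against 72 h cells and 0.05 to 0.16 in the other comparisons within lines. For all varying probe sets it lay between -0.02 and 0.01. Some of the 11 read the same gene, and these medians were not tested.

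Clones were also set against cells after 72 h of compound. In TC32, 5 of 18 passed against 12.8% of the array, of which 4 rose (background 6.75%) and 1 fell (background 6.01%), and 7 did not overlap against 25.7%. In TC71, 0 passed by limma against 2.67%, and 1 passed unadjusted against 14.8%. This comparison shares its clones with the comparison against parental cells, so the pair are not separate evidence. The parental groups of the lines gave 0 calls by limma among the 18 probe sets against 0.0344%, with 5 unadjusted against 6.92%.

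**Figure D2:**
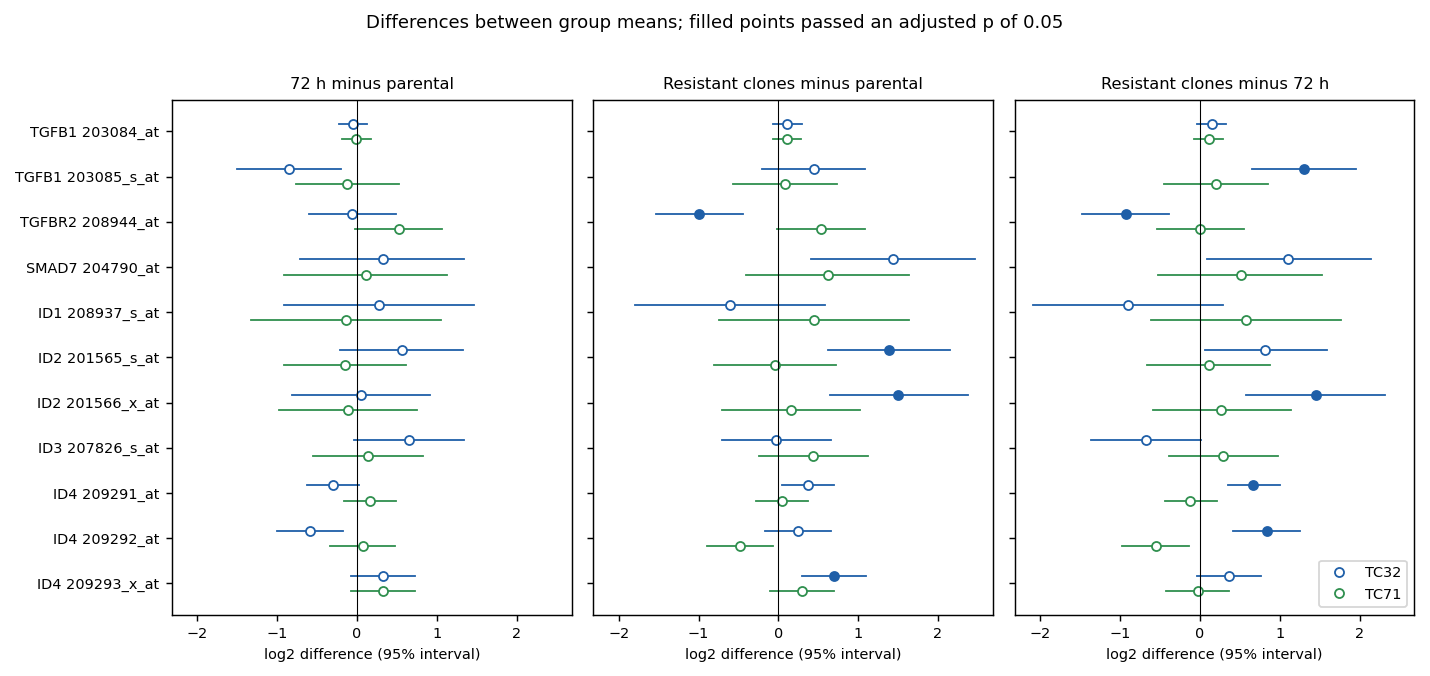
Differences of group means (horizontal axis, log2) with 95% intervals from limma for the varying probe sets (vertical axis), in panels by comparison, TC32 in blue and TC71 in green; filled points passed an adjusted p of 0.05. Filled points occur in the TC32 clone panels, on ID2, ID4, TGFB1 and TGFBR2.

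TGFB1 encodes the ligand TGF-beta 1, and its probe set 203085_s_at lies at chr19:41836813-41859395 in the array's annotation. In TC32 its values were 0.56, -0.16 and -0.12 on the parental arrays, -0.98, -0.65 and -0.65 after 72 h, and 0.05 in C1, 0.95 in C4 and 0.61 in CP. The 72 h arrays lay below all parental and clone arrays, and the clones overlapped the parental arrays. TGFB1 rose by 1.30 (SE 0.30, 2.46-fold) in clones against 72 h cells (limma, adjusted p = 0.0136), while the 72 h difference from parental cells, -0.85 (SE 0.30), did not pass (adjusted p = 0.177). Without clone C4 the former was 1.09 with an adjusted p of 0.0581.

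In TC71, TGFB1 read -0.40, 0.33 and 0.26 in parental arrays, -0.16, -0.05 and 0.05 after 72 h, and -0.47 in C3, 0.44 in C4A and 0.47 in C5. All 3 groups overlapped, with means of 0.07 ± 0.40, -0.05 ± 0.11 and 0.15 ± 0.54 (SD, n = 3). The other TGFB1 probe set, 203084_at, stayed within 0.33 of its median and differed from 203085_s_at by an RMS of 0.48 over the arrays, so its values did not follow that pattern.

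TGFBR2, the type II receptor for TGF-beta, had its varying probe set 208944_at at chr3:30648320-30735575. In TC32 the parental arrays read 0.01, -0.01 and 0.01, the 72 h arrays 0.08, -0.02 and -0.22, and the clones -0.71 (C1), -0.79 (C4) and -1.47 (CP). All 3 clones were below every other TC32 array, while the 72 h and parental arrays overlapped. TGFBR2 fell by 0.99 on the log2 scale in TC32 clones against parental cells (SE 0.25, 95% interval -1.54 to -0.45, a 1.99-fold difference; limma, adjusted p = 0.0391), and by 0.93 against 72 h cells (SE 0.25, adjusted p = 0.0285). The call against parental cells held without clone C1 but was lost without any 1 of the 3 parental arrays, C4 or CP (-1.09 to -0.75, adjusted p = 0.0611 to 0.13). The call against 72 h cells was lost without any 1 of the 72 h arrays or CP (-1.02 to -0.70, adjusted p = 0.0581 to 0.105).

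In TC71, TGFBR2 read -0.01, 0.16 and -0.76 in parental arrays, 0.23, 0.53 and 0.22 after 72 h, and 0.43 (C3), -0.09 (C4A) and 0.63 (C5). The 72 h arrays were above all parental arrays, and clone C4A fell among the parental values. Neither difference passed: 0.53 (SE 0.25) after 72 h with a limma adjusted p of 0.511, and 0.53 (SE 0.25, 95% interval -0.02 to 1.08) in the clones with an adjusted p of 0.492. The clone change was 1.52 lower in TC32 than in TC71 (difference -1.52, SE 0.36), and this line difference also did not pass (adjusted p = 0.13).

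SMAD7, which marks pathway activity as a feedback inhibitor, was read by 204790_at at chr18:46446223-46477081. TC32 parental arrays read 0.02, -0.32 and -0.78, the 72 h arrays -0.01, -0.09 and -0.01, and the clones 0.62 (C1), 0.66 (C4) and 1.94 (CP). Every TC32 clone was above every other TC32 array, with CP far above the rest. The difference from parental cells was 1.43 (SE 0.47) with a limma adjusted p of 0.101, and from 72 h cells 1.11 with an adjusted p of 0.16, so neither passed.

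In TC71, SMAD7 read -0.43, 0.01 and -0.05 in parental arrays, 0.13, -0.64 and 0.37 after 72 h, and -0.55 (C3), 0.40 (C4A) and 1.54 (C5). The clones spanned 2.09 log2 units, from below the lowest parental array to above the highest, and their mean difference of 0.62 did not pass (limma, adjusted p = 0.761).

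ID1, at chr20:30193169-30193921, differed more among clones than between groups. The TC32 parental arrays read -0.02, 0.37 and -0.21, the 72 h arrays 0.65, 0.43 and -0.09, and the clones -0.46 (C1), -1.59 (C4) and 0.35 (CP). The TC71 parental arrays read -0.57, -0.12 and 0.74, the 72 h arrays 0.10, -0.50 and 0.02, and the clones 1.31 (C3), 0.82 (C4A) and -0.76 (C5). Clone C4 of TC32 was the lowest and clone C3 of TC71 the highest of all 18 arrays. The clones spanned 1.93 in TC32 and 2.07 in TC71, against 0.58 and 1.31 for the parental arrays, and the TC32 clone difference of -0.61 did not pass (limma, adjusted p = 0.746).

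ID2 rose in TC32 clones by both of its single-gene probe sets. For 201565_s_at the parental arrays read -0.45, -0.90 and -1.02, the 72 h arrays -0.03, -0.12 and -0.53, and the clones -0.30 (C1), 0.76 (C4) and 1.32 (CP). For 201566_x_at the parental arrays read -0.31, -0.73 and -1.03, the 72 h arrays -0.18, -0.71 and -1.01, and the clones -0.12 (C1), 1.06 (C4) and 1.51 (CP). All clones were above all parental arrays on both probe sets, C1 only narrowly.

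The rise over parental cells was 1.38 (SE 0.35, 95% interval 0.62 to 2.15, 2.61-fold) for 201565_s_at and 1.50 (SE 0.40, 95% interval 0.64 to 2.37, 2.84-fold) for 201566_x_at, with limma adjusted p-values of 0.0404 and 0.0467. Both calls held without TC32 parental replicate 1 (1.55 and 1.69) or clone C1, and were lost without parental replicate 2 or 3, C4 or CP (1.02 to 1.33, adjusted p = 0.123 to 0.165, and 1.16 to 1.48, adjusted p = 0.143 to 0.192). Against 72 h cells, 201566_x_at rose by 1.45 (SE 0.40, adjusted p = 0.0317), a call lost without 72 h replicate 2 or 3, C4 or CP (1.10 to 1.41, adjusted p = 0.094 to 0.129).

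TC71 did not show a shift of this kind in ID2. On 201565_s_at its parental arrays read 0.03, 0.15 and 0.64, its 72 h arrays 0.27, -0.12 and 0.21, and its clones 0.62 (C3), 0.37 (C4A) and -0.30 (C5). The groups overlapped throughout. The line differences of the clone changes were 1.43 and 1.35 for the 2 probe sets and did not pass (limma, adjusted p = 0.304 and 0.396). Before any treatment, TC32 parental arrays were all below the TC71 ones on both probe sets, by 1.07 (difference -1.07, SE 0.35, adjusted p = 0.424) and 1.0 (difference -1.0, adjusted p = 0.569).

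The annotation aligns the ID2 probe sets to chr2:8822185-8823934 and chr2:8822197-8824368, and gives each a second alignment on chromosome 3 (chr3:62109756-62110392 and chr3:62109322-62110380), where the copy ID2B lies. Signal from the copy cannot be separated, so the ID2 values are uncertain to that extent. Probe set 213931_at, which names both ID2 and ID2B and is outside the 18, read -1.0, -0.31 and -1.01 in TC32 parental arrays and 0.90, 0.39 and 1.38 in C1, C4 and CP. Its clones again lay above the parental arrays.

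ID3, at chr1:23884431-23885969, read -0.06, 0.06 and 0.23 in TC32 parental arrays, 0.77, 0.77 and 0.64 after 72 h, and -0.34 (C1), -0.06 (C4) and 0.55 (CP). The 72 h arrays sat close together and above all other TC32 arrays. The difference at 72 h, 0.65 (SE 0.32), did not pass (limma, adjusted p = 0.395). In TC71 the parental arrays read -0.55, -0.75 and 0.13, the 72 h arrays -0.25, -0.40 and -0.10, and the clones 0.59 (C3), 0.29 (C4A) and -0.75 (C5). As for ID1, C3 was the highest TC71 clone and C5 the lowest.

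**Figure D3:**
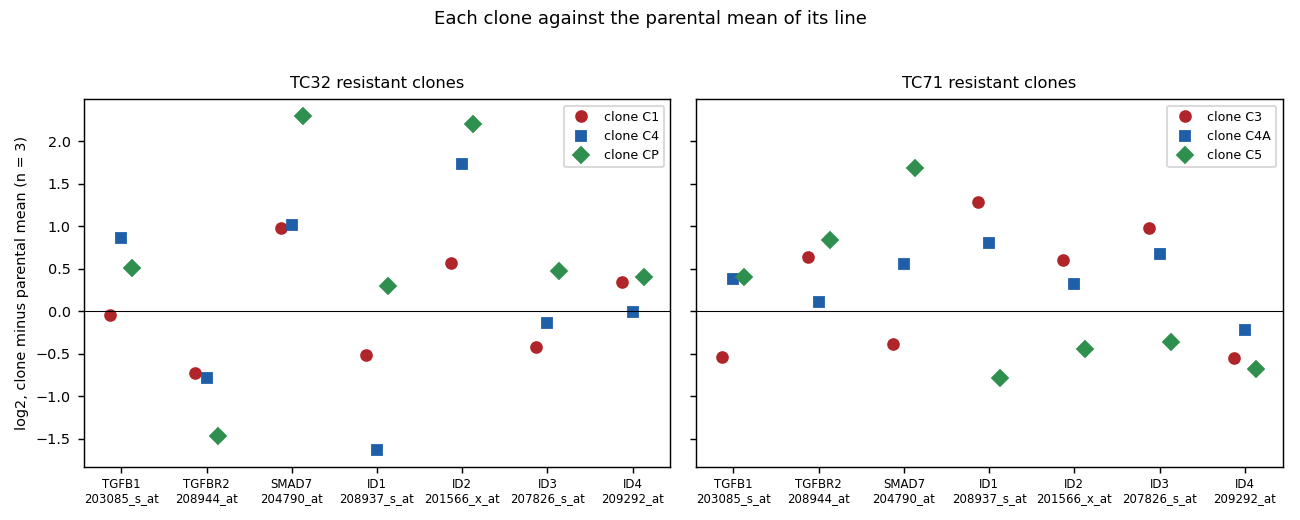
Each resistant clone minus the mean of 3 parental arrays of its line (vertical axis, log2), for the genes along the horizontal axis, with TC32 clones in one panel and TC71 clones in the other. Each gene is shown by its probe set with the largest standard deviation. ID1 in the TC32 panel runs from -1.63 in C4 to 0.30 in CP, and SMAD7 in the TC71 panel from -0.39 in C3 to 1.69 in C5.

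Relative to the parental mean, C4 of TC32 combined the lowest ID1 (-1.63) with raised ID2 (1.55 on 201565_s_at), and CP had the highest ID2 (2.11) and SMAD7 (2.30). In TC71, C5 combined the lowest ID1 (-0.78), ID2 (-0.57) and ID3 (-0.36) with the highest SMAD7 (1.69). C3 showed the opposite order, with ID1 at 1.29 and SMAD7 at -0.39. Each clone was measured on 1 array, so these are single values without an error of their own.

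ID4 was read by 3 probe sets at chr6:19837617-19842428, which did not agree on the effect of 72 h in TC32. On 209292_at the TC32 parental arrays read -0.23, -0.28 and -0.22, the 72 h arrays -0.64, -0.70 and -1.16, and the clones 0.10 (C1), -0.26 (C4) and 0.16 (CP). The 72 h arrays were below all others. On 209293_x_at, which covers only chr6:19837671-19839661, the parental arrays read -0.90, -0.45 and -0.52, the 72 h arrays -0.35, -0.00 and -0.54, and the clones -0.21 (C1), 0.21 (C4) and 0.22 (CP). Here the parental and 72 h arrays overlapped and the clones were above the parental arrays. The 72 h differences were -0.59 on 209292_at (SE 0.19; limma, adjusted p = 0.143) and 0.33 on 209293_x_at (adjusted p = 0.5).

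ID4 rose in TC32 clones against 72 h cells by 0.67 on 209291_at (SE 0.15, adjusted p = 0.0111) and 0.84 on 209292_at (SE 0.19, adjusted p = 0.0126), and against parental cells by 0.70 on 209293_x_at (SE 0.18, 1.62-fold, adjusted p = 0.0441), all by limma. On 209291_at the 72 h arrays read -0.70, -0.49 and -0.69 and the clones -0.19, 0.20 and 0.12, without overlap. The call on 209293_x_at held without C1 and was lost without any 1 of the parental arrays, C4 or CP (0.56 to 0.79, adjusted p = 0.0834 to 0.142). That on 209292_at was lost only without 72 h replicate 3 (0.68, adjusted p = 0.0644), and that on 209291_at held without each single array. Both held in a fit without TC32 parental replicate 1, TC71 parental replicate 2, TC71 72 h replicate 2 and clone C4 (0.59, adjusted p = 0.0473, and 0.97, adjusted p = 0.00917). With only the groups compared in the fit both were lost, and 209291_at also after quantile normalization (limma, adjusted p at most 0.0982). In TC71 no ID4 difference passed, and the clones read 0.48 below parental cells on 209292_at (difference -0.48, adjusted p = 0.353), with differences of 0.30 on 209293_x_at and 0.04 on 209291_at.

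None of the 18 probe sets passed limma's test of a line difference. For the 72 h response 0 passed against 0.304% of the array, with 2 unadjusted against 8.01%, and for the clone changes 0 passed against 0.172%, with 4 unadjusted against 10.7%. What passed in TC32 and not in TC71 is therefore not shown to differ between the lines.

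Over the 18 arrays, the probe sets nearest in value to a member were named by the smallest RMS difference. For TGFBR2 208944_at they were MTUS1 (0.29) and PNMA2 (0.32), for ID2 201565_s_at NCK2 (0.31) and AP1S1 (0.34), and for TGFB1 203085_s_at CADPS2 and BAG1 (0.27 each). ID4 209292_at had the closest neighbours, XPA (0.22) and PPA2 (0.23), and ID1 the most distant, PEX7 and TRNAU1AP (0.48 each), while SMAD7 lay 0.35 from NACC2.

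The rest of the pathway was followed through a list of 97 other genes, of which 93 were on the array with 179 probe sets. In TC32 at 72 h, 2 of 179 rose and 1 fell (1.68%, against 2.05% of the array); in TC71, 0 passed by limma and 19 did so unadjusted (10.6%, against 10.3%). In TC32 clones against parental cells 7 rose and 3 fell (5.59%, against 5.51%), and in TC71 clones 0 passed by limma and 16 did so unadjusted (8.94%, against 10.7%). Against 72 h cells, 7 rose and 10 fell in TC32 clones (9.50%, against 12.8%) and 5 rose and 0 fell in TC71 clones (2.79%, against 2.67%). These shares were near or below those of the array, so the genes that follow are single results and not a shift of the list.

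No other ligand probe set of 38 passed by limma in the 6 comparisons within lines, where 0.0933% to 12.8% of the array did. Unadjusted, 0 to 3 (at most 7.89%) passed in each, where at least 10.3% of the array did. Among receptors, BMPR2, the type II receptor for BMPs (209920_at), read -0.21, -0.18 and -0.28 in TC32 parental arrays and 1.18, 1.23 and 0.83 in its clones, which lay far above. BMPR2 rose by 1.30 (SE 0.33; limma, adjusted p = 0.0367) there, a call lost when any 1 of those 6 arrays was left out (1.23 to 1.43, adjusted p = 0.0533 to 0.132), and by 1.62 in TC71 clones against 72 h cells (SE 0.33, adjusted p = 0.0199), where C3 or any 1 of the 72 h arrays decided the call (1.26 to 1.72, adjusted p = 0.0501 to 0.0723). The other BMPR2 probe set, 210214_s_at, passed in no comparison. With probe sets averaged by gene, the TC32 call on BMPR2 was lost and the TC71 call held. Against 72 h cells in TC32 clones, ACVR1, a type I receptor for BMPs and activins, rose by 0.59 (limma, adjusted p = 0.0199; 0.0643 to 0.0847 without 72 h replicate 3, C4 or CP). In the same comparison ACVR2B, a type II activin receptor, fell by 1.02 (limma, adjusted p = 0.00439). With only the groups compared in the fit, the ACVR2B call was lost (adjusted p = 0.0705).

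Among the SMAD genes, SMAD9, a receptor SMAD of the BMP branch also called SMAD8, gave the clearest response to 72 h of compound. Its probe set 206320_s_at read 0.00, 0.00 and -0.01 in TC32 parental arrays, 0.87, 1.34 and 1.36 after 72 h, and 0.38, 0.00 and 0.30 in the clones. The 72 h arrays were above all 15 others. SMAD9 rose by 1.19 at 72 h (SE 0.13, 2.29-fold; limma, adjusted p = 0.000573) and was 0.96 lower in clones than in 72 h cells (difference -0.96, SE 0.13, adjusted p = 0.000779). In TC71 it read -0.09, 0.00 and -0.12 after 72 h, and the line difference of 1.26 passed (SE 0.19, adjusted p = 0.0111).

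SMAD5, another BMP receptor SMAD, rose by 0.71 in TC32 clones over parental cells on 205187_at (adjusted p = 0.0407; 0.0606 to 0.172 without any 1 array other than CP), and by 1.20 and 1.24 in TC71 clones over 72 h cells on its 2 probe sets (limma, adjusted p = 0.00511 and 0.0224). The latter, on 205188_s_at, was lost without 72 h replicate 1 or 2 or C3 (adjusted p = 0.058 to 0.0944). With only the groups compared in the fit, the TC71 calls on both SMAD5 probe sets were lost. In TC71 the 72 h arrays read -0.92, -0.87 and -1.11 on 205187_at and the clones 0.48, 0.22 and 0.01, without overlap. SMAD1 rose by 0.51 on 210993_s_at in TC32 clones over 72 h cells (limma, adjusted p = 0.0432), a call lost without any 1 of those 6 arrays (adjusted p = 0.0541 to 0.138). The other SMAD1 probe set, 208015_at, differed by -0.01.

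Of 45 regulator probe sets, 1 passed at 72 h in TC32 (2.22%, against 2.05% of the array). Against 72 h cells, 2 passed in TC32 clones (4.44%, against 12.8%) and 1 in TC71 clones (2.22%, against 2.67%). TWSG1, a secreted modulator of BMP activity (219201_s_at), read -0.08, -0.32 and -0.78 in TC32 parental arrays, -1.0, -1.55 and -1.90 after 72 h, and 0.08, 0.30 and 0.68 in the clones. The 72 h arrays were the lowest of the line and the clones the highest. TWSG1 fell by 1.09 at 72 h (SE 0.22; limma, adjusted p = 0.0238) and was 1.84 higher in clones than at 72 h (SE 0.22, adjusted p = 0.000361). The first call was lost without parental replicate 1 or 2 or 72 h replicate 2 or 3 (-1.06 to -0.89, adjusted p = 0.0771 to 0.109), and the second held without each single array. FKBP1A, which binds type I receptors, rose by 1.96 on 210187_at in TC32 clones over 72 h cells (SE 0.42; limma, adjusted p = 0.00932). None of the other FKBP1A probe sets passed, and the call was lost with probe sets averaged by gene. SKI, a repressor of SMAD transcription, rose by 2.11 in TC71 clones over 72 h cells (SE 0.40; limma, adjusted p = 0.0145; 0.0578 and 0.0656 without 72 h replicate 2 or 3).

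Of the target genes, CCN2, a matricellular protein gene and standard TGF-beta readout (209101_at), read -2.63, -2.48 and -3.33 in TC32 parental arrays, -0.59, -0.35 and -0.27 after 72 h, and 1.30, 1.30 and 0.33 in the clones. The 3 groups did not overlap and were ordered parental, 72 h, clones. CCN2 rose by 3.79 in clones over parental cells (SE 0.79, 13.8-fold; limma, adjusted p = 0.0168), a call lost without parental replicate 2 or 3 or C4 (3.53 to 3.96, adjusted p = 0.0546 to 0.0845). MYC was 0.78 lower in TC32 clones than in 72 h cells (limma, difference -0.78, SE 0.13, adjusted p = 0.00288). The MYC call held without each single array and was lost with only the groups compared in the fit (adjusted p = 0.102). MSX2, a BMP target, had TC32 means of -0.13 ± 0.15, 1.46 ± 0.23 and 2.48 ± 2.49 (SD, n = 3) in parental, 72 h and clone arrays, with a clone spread as large as the clone mean, without passing in any comparison (lowest adjusted p = 0.0846).

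The E protein genes, whose products the ID proteins bind, moved in opposite directions in TC32 clones. In TC32 clones against parental cells, 35.0% of their 20 probe sets passed, where 5.51% of the array did. TCF3 rose on 4 of 11 probe sets against parental cells, by 0.62 to 0.98 (limma, adjusted p = 0.00726 to 0.0351). On its probe set 209152_s_at the parental arrays read -0.15, -0.28 and -0.43 and the clones 0.63, 0.94 and 0.53, without overlap. That call held without each single array, and the other 3 were lost without parental replicate 2 or 3 or C4 (2 of them also without C1; adjusted p = 0.0572 to 0.154). TCF4, encoding E2-2, fell on 3 of 7 probe sets, by 0.55 to 0.73, and all 7 were lower, with a median difference of -0.38. On 212387_at the TC32 parental arrays read 0.08, -0.09 and 0.22 and the clones -0.73, -0.30 and -0.95. Each clone was below every parental array. The 3 TCF4 calls were lost without parental replicate 3 (-0.66 to -0.50, adjusted p = 0.0671 to 0.104). With only the groups compared in the fit, neither these 3 nor the 4 TCF3 calls held. Probe sets of a gene can read the same transcripts and are not independent. Of the 11 for TCF3, 4 are annotated to the opposite strand, and all 4 calls fell among the other 7.

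Against 72 h cells all 7 TCF4 probe sets fell in TC32 clones, by 0.67 to 0.98 (limma, adjusted p = 0.00058 to 0.00716), and 1 had risen at 72 h (222146_s_at, 0.58, adjusted p = 0.0311; 0.082 to 0.125 without replicate 2 or 3 of either group). The calls on the 7 against 72 h cells held without each single array. With only the groups compared in the fit, that on 222146_s_at held and the others were lost (limma, adjusted p = 0.0576 to 0.117). In TC71 clones against parental cells all 7 were higher, by 0.10 to 0.65, and none passed; against 72 h cells 212382_at rose by 0.86 (adjusted p = 0.0163; 0.05 to 0.0671 without 72 h replicate 1 or 3 or C3). The line differences in clone changes lay between -0.97 and -0.50 and did not pass (adjusted p = 0.13 to 0.348). TCF12 varied on 1 of 2 probe sets and passed in none of the comparisons within lines.

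**Figure D4:**
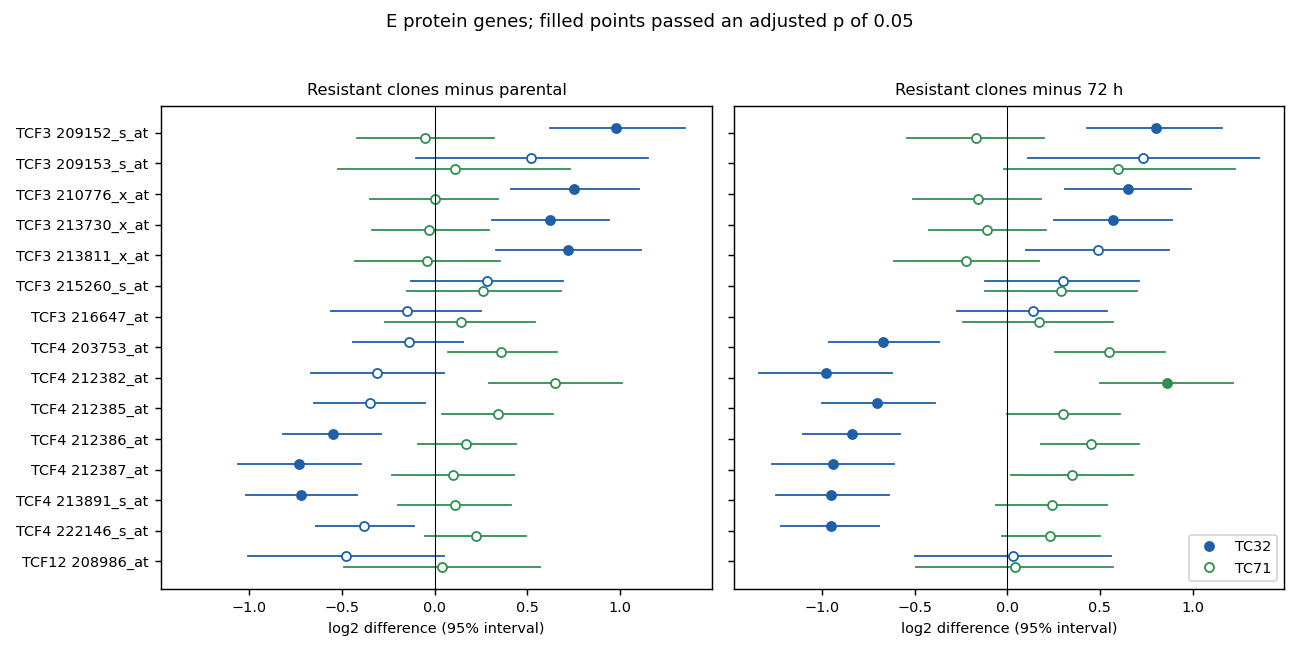
Differences of group means (horizontal axis, log2) with 95% intervals from limma for the probe sets of TCF3, TCF4 and TCF12 that varied (vertical axis), in panels for clones against parental and against 72 h cells, TC32 in blue and TC71 in green; filled points passed an adjusted p of 0.05. In TC32 clones against parental cells TCF3 points lie mostly to the right of 0 and TCF4 points to the left, with 3 of 7 filled.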

How the data were processed

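RNA of 18 samples was hybridised to Affymetrix Human Genome U133A 2.0 arrays. The deposited log2 values were made by the authors with GeneSpring GX 12.1 at default settings, per the labels' protocols, and each probe set was found to have a median of 0 over the arrays. Of 22277 probe sets, 62 controls, 583 with several genes and 1258 without a gene were left out. Symbols were updated by Entrez ID (20226 matched, 1672 changed). A model of 6 group means was fitted to the remaining 20374 probe sets in limma 3.58.1 (R 4.3.3; 12 residual degrees of freedom), with Benjamini-Hochberg adjustment, no pseudocount and no filter, and was tested on simulated data. The number of arrays, 3 per group with 1 per clone, limits precision; the files give no detection calls. The genes and lists were chosen with earlier results of these data known. Named pathway genes were up to 10 with the largest differences among those passing in a comparison, together with the target MSX2, named after its values were seen. Alternatives covered filtering, gene means, variance settings, normalization, the groups fitted and each array left out.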

Additional observations from a re-analysis of the deposited data

Results flagged for a closer look

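The 4 results below were set apart by the direction or the test of a difference between lines. SMAD9 (206320_s_at) changed by 1.19 at 72 h in TC32 and by -0.07 in TC71, and the difference of 1.26 passed limma's interaction test (adjusted p = 0.0111). For the other 3, the changes from the parental mean had opposite signs in the lines, but limma's test of the difference did not pass, so the lines are not shown to differ. TGFBR2 (208944_at) changed by -0.99 in TC32 clones and by 0.53 in TC71 clones, a difference of -1.52 (adjusted p = 0.13). ID2 (201565_s_at) changed by 0.56 in TC32 and by -0.15 in TC71 at 72 h, a difference of 0.72 (adjusted p = 0.928), with 1 TC71 array at its parental mean; on 201566_x_at the changes were 0.05 and -0.11. ID4 (209291_at) changed by -0.30 in TC32 and by 0.16 in TC71 at 72 h, a difference of -0.46 (adjusted p = 0.619), while on 209293_x_at both lines were higher, by 0.33 and 0.32.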

How the results depend on the processing

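Clone calls in TC32 depended on the setting. Against parental cells (4 of 18 probe sets called), 0 passed without 4 arrays (TC32 parental replicate 1, TC71 parental replicate 2, TC71 72 h replicate 2 and clone C4), 2 with probe sets averaged by gene (ID2 and TGFBR2), 0 with only the groups compared in the fit, 1 after quantile normalization and 1 without _x_at and _s_at probe sets; leaving out single arrays gave 0 to 4, and 0 without parental replicate 2 or 3, clone C4 or clone CP, while calls over all probe sets ran from 286 to 1678. Against 72 h cells (5 called), the same settings gave 2, 3, 0, 1 and 3, and leaving out single arrays gave 2 to 6. The parental comparison gained 1 call (ID4 209292_at) after quantile normalization. The other 6 comparisons stayed at 0 calls in all settings run. Single calls and counts of calls were tallied together over all settings. Of these checks 513 were labelled the same, 172 single calls no longer passed, 20 counts moved by over 1.5 times and 0 reversed. The 513 hold single calls that kept direction and side of the threshold. They also hold counts that stayed within 1.5 times, among them counts that were 0 throughout, so they do not measure how stable the calls were. Of 45 single calls named, 39 were lost with only the groups compared in the fit, 21 without the 4 arrays, 13 after quantile normalization and 6 with gene means, and 18 held without each single array. The cause was not tested, beyond fewer arrays or probe sets where these were left out.

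Parental and 72 h arrays share replicate numbers, but same-numbered arrays correlated at 0.17, 0.02 and 0.30 in TC32 and at -0.01, 0.07 and 0.04 in TC71, so the numbers were not taken as a pairing. A fit with the replicate number as a block used the parental and 72 h arrays only. Effects of the block and of leaving out the clones cannot be told apart. In that fit 0 of 18 passed in both 72 h comparisons and in their line difference. SMAD9's line difference missed the threshold (1.26; limma, adjusted p = 0.0531). Calls over all probe sets went from 417 to 769 in TC32, from 19 to 534 in TC71 and from 62 to 132 for the line difference. With only the groups compared in the fit, 416 probe sets passed in TC71 at 72 h, and 667 after quantile normalization. In the pathway list, leaving out the 4 arrays (chosen after seeing the data) gave 8 calls for 10 in TC32 clones against parental cells, and 15 for 17 against 72 h cells. Signal over background is not given by the values, so dim probe sets could not be told from flat ones.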
